A study of Mus musculus with 20 samples.

Results

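The spread of DNA methylation between hematopoietic stem cell (HSC) samples that had the same number of 5-fluorouracil (5FU) cycles was measured, that is, how far samples of one group lay from each other and not where the group mean lay. All 20 samples of the series were used, grouped by their labels into 4 samples without 5FU (0x), 6 after 2 cycles (2x), 4 after 4 cycles (4x) and 6 after 10 cycles (10x). Of 1164897 autosomal bins of 100 bp, 81383 were used, which are the bins in which each group varied and no value other than 0 or 100% recurred within a group. The labels give the genotype of all samples as C57BL/6 and the methods name the strain C57BL/6 J. According to the study's methods the animals were young adult female mice at the start, injected intraperitoneally at intervals of weeks, and the untreated group received no cycle. The labels give the tissue as blood and the cell type as HSC, and the methods describe HSCs sorted from bone marrow. Expression was not analysed here, and the labelled cell type was looked at only through promoter methylation, which averaged 3.12% over 53 bins of HSC transcription factor genes, 6.06% over 14 bins of HSC surface marker genes and 35.3% over 6 bins of lineage marker genes. All promoter bins averaged 12.8%, and PRC2 subunit genes, which do not mark HSCs, averaged 4.03%. The 6 lineage bins came from 4 of 19 genes, so these values do not settle the cell type. The labels do not say that each sample came from a separate mouse, so p-values measure the spread between these samples.

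HSCs are the rare, mostly quiescent cells that maintain all blood lineages. 5FU blocks thymidylate synthesis and kills dividing progenitors, after which the surviving HSCs are driven into division to rebuild the marrow. Cytosine methylation at CpG sites is copied to the new strand after replication by the maintenance methyltransferase, so a cell population keeps a pattern through division, with errors. CpG-rich promoters are mostly unmethylated, gene bodies and intergenic DNA mostly methylated, and differentially methylated regions of imprinted genes are methylated on a single parental copy. Reduced representation bisulfite sequencing (RRBS) reads the methylated share of the molecules sampled at CpGs near a restriction site. A bin read from few molecules can therefore sit at 0 or 100% by sampling, and read numbers were not in the files used here, so the depth behind each value is unknown.

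The following 10 bins are printed because they carry the patterns described below. Each is named by the gene of the nearest transcription start site, so an intron bin need not lie in the gene named. They are plus strand sequence of RefSeq GRCm38.p6, the assembly of mm10, with CpG dinucleotides in capitals. The first 3 were widely spread in every group, the next 4 were tight in every group at an intermediate level, and the last 3 were wide in 0x or 2x and narrow in 10x.
Gm19668 (promoter, chr10:77799000-77799099): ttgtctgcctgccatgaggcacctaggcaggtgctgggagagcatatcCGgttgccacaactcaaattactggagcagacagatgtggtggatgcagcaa
Gm36784 (intergenic, chr13:48764200-48764299): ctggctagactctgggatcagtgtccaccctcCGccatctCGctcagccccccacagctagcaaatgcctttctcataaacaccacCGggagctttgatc
Anks1b (intron, chr10:90810100-90810199): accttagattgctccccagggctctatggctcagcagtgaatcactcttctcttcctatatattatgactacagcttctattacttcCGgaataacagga
Gm33780 (intergenic, chr2:98665000-98665099): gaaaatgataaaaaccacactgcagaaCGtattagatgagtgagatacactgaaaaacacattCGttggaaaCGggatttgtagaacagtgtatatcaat
1700113H08Rik (intron, chr10:87138700-87138799): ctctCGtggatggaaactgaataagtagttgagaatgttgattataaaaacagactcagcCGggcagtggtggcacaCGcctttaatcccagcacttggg
Igf1r (intron, chr7:68044700-68044799): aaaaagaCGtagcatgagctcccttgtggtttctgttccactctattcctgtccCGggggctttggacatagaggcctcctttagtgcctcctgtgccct
Rbmxl2 (promoter, chr7:107210100-107210199): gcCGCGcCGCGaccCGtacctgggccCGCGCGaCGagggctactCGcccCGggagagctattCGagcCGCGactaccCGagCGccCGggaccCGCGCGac
Cercam (promoter, chr2:29868700-29868799): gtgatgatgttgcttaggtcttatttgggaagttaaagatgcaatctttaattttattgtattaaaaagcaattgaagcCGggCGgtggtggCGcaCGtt
Zbtb42 (promoter, chr12:112678100-112678199): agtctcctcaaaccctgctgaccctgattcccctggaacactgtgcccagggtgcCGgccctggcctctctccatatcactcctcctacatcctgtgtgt
Nrg1 (intron, chr8:31819600-31819699): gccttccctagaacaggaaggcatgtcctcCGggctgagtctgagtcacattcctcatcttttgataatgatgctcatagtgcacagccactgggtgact

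Before the groups are compared, 2 samples and 1 group need to be named. In the 10x sample 32, 8.19% of values lay within 0.1 percentage points of the mean of the other 10x samples, against 1.07 to 1.67% in those others, and it was the sample farthest from its group mean in 8.04% of bins. In the 4x sample 06, 9.41% of values were at 0 or 100%, against 30.4 to 53% in the other 4x samples. In the 2x group fewer bins varied with nothing repeated (114328 of the autosomal bins) than in 0x (267846), 4x (338105) or 10x (284962), so the 2x group set most of the limit on the bins used. Where a sample lacked a bin, the authors had put in an average of its group, and a value filled in a single sample could not be recognised. Without sample 32, the difference between 10x and 0x in the score described below was -3.43 (exact permutation test, adjusted p = 0.0119).

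Among the bins used, the spread was widest in 2x and narrowest in 10x. The SD of a bin within its group averaged 9.63, 12.9, 8.17 and 7.34 percentage points at 0x, 2x, 4x and 10x, and the medians were 6.16, 8.52, 4.92 and 4.46 points in the same order. The 2x group had the highest SD of the 4 groups in 48.2% of bins and the 10x group the lowest in 34.8%. With 4 samples in every group the order was kept, while the gap between 2x and 0x narrowed and that between 10x and 0x widened. The bins had been chosen with all samples, so a draw from 2x or 10x could be constant in a bin. In 0x and 4x every bin varied, so the draws do not fully put the groups on an equal footing. Over all 15 draws of 4 samples, the mean SD was 11.9 points in 2x (11.6 to 12.3) and 6.93 points in 10x (6.67 to 7.27). The shares of bins given in this paragraph used all samples of each group. Bins with an SD over 20 points made up 13.2, 22.6, 9.99 and 7.43% at 0x, 2x, 4x and 10x.

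To test the spread over samples, each sample was given a deviation score. This is the root mean square over bins of its distance from the mean of the other samples of its group. It was scaled so that its mean square over a group equals the mean variance of that group. Bins were kept only where every group varied, which can act differently on 4 and on 6 samples, so group size may still enter. The scores were 12.5, 14.9, 12.6 and 14.9 points in 0x, then 18.3, 18.3, 16.7, 18, 15.5 and 18.7 in 2x, then 11, 9.31, 14 and 13.3 in 4x, and 9.08, 10.5, 10.8, 11.7, 11.1 and 10.3 in 10x. No 10x score reached the lowest 0x score, whereas the 4x scores overlapped both 0x and 10x. The score averaged 10.6 ± 0.900 points in 10x (SD, n = 6) and 13.7 ± 1.37 in 0x (SD, n = 4), a difference of -3.14 (two-sided exact permutation test, p = 0.00476, adjusted p = 0.00714 over 6 pairs of groups). It averaged 17.6 ± 1.24 points in 2x (SD, n = 6), 3.86 above 0x (exact permutation test, adjusted p = 0.00714). The scores of 10x lay below those of 2x, with a difference of -7.0 points (exact permutation test, p = 0.00216, adjusted p = 0.00714), and those of 4x differed from 2x by -5.72 (exact permutation test, adjusted p = 0.00714). These p-values are the smallest that the group sizes allow. The scores of a group depend on one another, because each is a distance from the other samples of that group. They were held fixed while samples were exchanged between groups, so the p-values of all score tests here are approximate. The 4x scores averaged 11.9 ± 2.14 points (SD, n = 4), and neither their difference from 0x, -1.86 (exact permutation test, p = 0.171), nor the difference of 10x from 4x, -1.28 (exact permutation test, p = 0.214), passed the test.

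**Figure D1:**
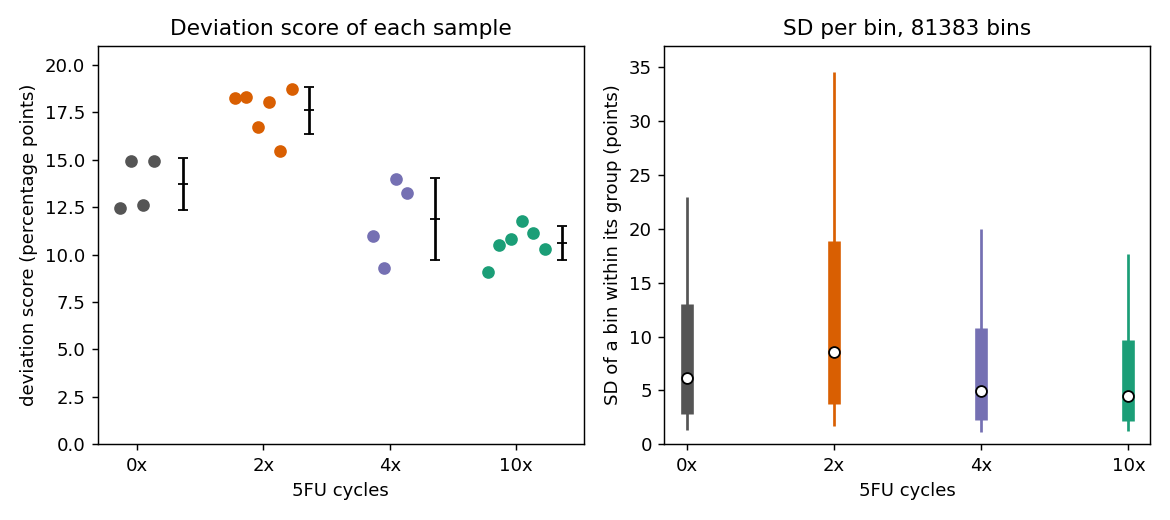
Left, the deviation score of each of the 20 samples in percentage points by number of 5FU cycles, with the group mean and SD in black beside the points; right, the SD per bin within each group (median as circle, quartiles as thick bar, 10th to 90th percentile as thin line). All 6 samples of 10x lie below all 4 of 0x, and all 6 of 2x lie above them.

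Both the increase in 2x and the decrease in 10x depended on how the bins were chosen. A bin enters the set only if 2x varies in it, and 2x was at a constant value in many bins. When bins were chosen by the groups not compared (4x and 10x varied, nothing repeated in any group; 160521 bins), 2x averaged 13.3 points and 0x 13.1, a difference of 0.203 with overlapping samples (exact permutation test, p = 0.805, n = 6 and 4). In these bins 2x was constant in 43.1% and 0x in 22.4%, and 75.9% of 2x values were at 0 or 100%, against 57.0% of 0x values. When chosen in the same way by 2x and 4x (97470 bins), 10x averaged 10.1 points and 0x 12.9, a difference of -2.77 without overlap (exact permutation test, adjusted p = 0.0143, n = 6 and 4). Chosen by 0x and 4x (141841 bins), 10x averaged 10.3 points and 2x 13.7, a difference of -3.39 without overlap (exact permutation test, adjusted p = 0.013, n = 6 each), and here too 2x was constant in 40.02% of bins and 10x in 12.1%. In a larger set, the 272673 bins where 1 or more groups varied and nothing repeated, the difference of 2x from 0x was -2.43 (exact permutation test, adjusted p = 0.0143), which is the opposite direction. In that set 10x differed from 0x by -3.54 (exact permutation test, adjusted p = 0.0143) and from 2x by -1.10, with overlapping samples and no longer past the test (exact permutation test, adjusted p = 0.0909). Over all autosomal bins that vary, neither 10x minus 0x, -1.53 (exact permutation test, adjusted p = 0.514), nor 10x minus 2x, 0.216 (exact permutation test, adjusted p = 0.926), passed. How many of the constant values were measured and how many filled cannot be told apart in the values used.

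The share of values at exactly 0 or 100% moved with the spread. Per sample, 0x had 28.3 to 49.1%, 2x 49.4 to 62.5%, 4x 9.41 to 53% and 10x 24 to 38.5%. In 0x, 2x and 4x the sample with the highest share was the sample with the highest or, in 0x, nearly the highest score, while in 10x the highest score belonged to sample 32, which had the lowest share. In the 1343 bins in which no sample was at 0 or 100%, the score averaged 10.7 ± 1.63 points in 10x and 12.05 ± 1.38 in 0x (SD, n = 6 and 4), a difference of -1.35 that did not pass the test (exact permutation test, adjusted p = 0.307). In the same bins 2x averaged 14.8 ± 0.488 points (SD, n = 6), 2.76 above 0x (exact permutation test, adjusted p = 0.00952), and 10x differed from 2x by -4.11 (exact permutation test, adjusted p = 0.00952). The part of the number of molecules per bin in the spread was not tested.

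**Figure D2:**
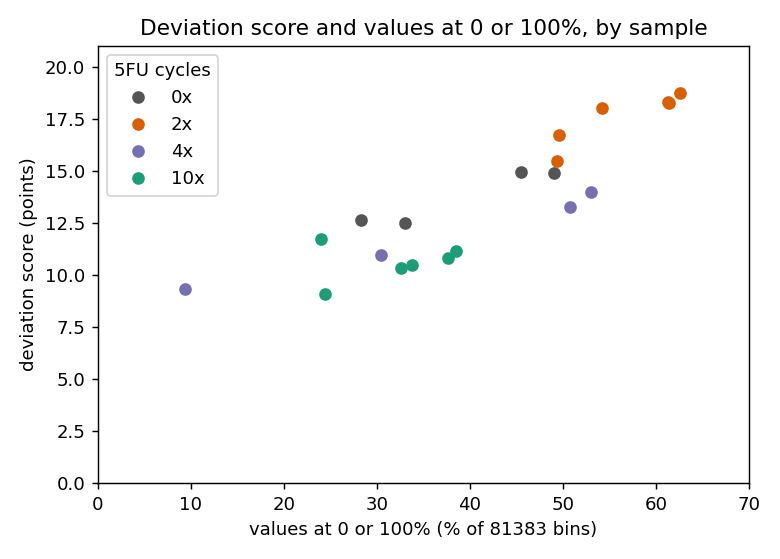
Each point is 1 of 20 samples, with the percent of its 81383 values at 0 or 100% on the x axis and its deviation score in percentage points on the y axis, colored by 5FU cycles. The 2x samples lie at 49.4 to 62.5% with the highest scores, and the 4x sample 06 lies at 9.41% with a score of 9.31.

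The label numbers fall in 2 runs, 01 to 12 and 13 to 34, each holding samples of every group, and the labels do not say whether the runs were handled apart. Within the first run, 2x was 4.73 points above 0x and 10x differed from 0x by -4.08. Within the second run these differences were 3.33 and -2.75. With so few samples the first run cannot go below p = 0.333 in an exact permutation test and the second cannot go below 0.0667 for these pairs. The root mean square SD of pairs of samples from the same run was 10.9 points in 10x, against 10.3 for pairs from different runs, and in 2x it was 17.4 against 17.8. The 4x pair of the first run, 05 and 06, had 8.99 points, and that of the second, 19 and 20, had 14.3. The 4x score accordingly differed from 0x by -4.77 within the first run and by 0.421 within the second.

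Spread depends on the level of a percentage, since a bin near 0 or 100% has little room to vary. The comparison was therefore made in 7 bands of the mean methylation over the 4 groups. The score was highest at 40 to 60% (3510 bins), where it averaged 26.1, 33.5, 24.3 and 21.6 points at 0x, 2x, 4x and 10x. In this band the 10x samples lay between 18.7 and 23.3 points and the 0x samples between 23.6 and 28.3, with no overlap, a difference of -4.51 (exact permutation test, adjusted p = 0.0143 over 21 comparisons, n = 6 and 4). The 2x scores were higher than 0x in all 7 bands, by 1.77 points at 95 to 100% up to 7.39 at 40 to 60% (exact permutation tests, adjusted p from 0.0143 to 0.0308). The 10x scores averaged below 0x in all 7 bands and passed the test in 6, the exception being 5 to 20%, with a difference of -2.56 (exact permutation test, adjusted p = 0.06). The 4x scores averaged below 0x in all 7 bands and passed the test at 95 to 100% alone, with 4.74 ± 0.377 in 4x against 6.12 ± 0.451 in 0x (SD, n = 4 each; exact permutation test, p = 0.0286, adjusted p = 0.0429), where 0.0286 is the smallest p that 4 against 4 samples allow. Relative to 0x, the mean SD of 10x was lowest in methylated bins, 0.690 of that of 0x at 80 to 95% and 0.689 at 95 to 100%, and nearer to it at 20 to 40%, with 0.854. These ratios were not compared by a test.

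In the bins chosen by the groups not compared, 10x was lower than 0x past the test in the 5 bands above 20% (differences of -1.14 to -5.50, exact permutation tests, adjusted p = 0.01 to 0.0167) and not past the test in the 2 bands below it. The 2x scores were higher than 0x there at 0 to 5%, by 0.517 points (exact permutation test, adjusted p = 0.0385), and at 40 to 60%, by 5.53 points (exact permutation test, adjusted p = 0.0167), while in the methylated bands they averaged below 0x without passing, with differences of -1.74 at 80 to 95% (exact permutation test, adjusted p = 0.158) and -0.624 at 95 to 100% (exact permutation test, adjusted p = 0.0733).

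**Figure D3:**
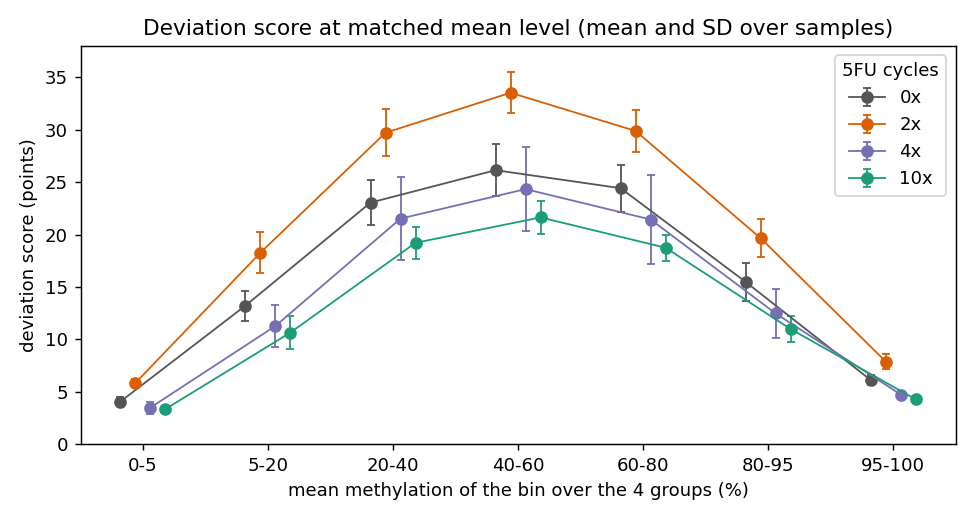
Deviation score in percentage points (mean and SD over the samples of a group) in 7 bands of the bin's mean methylation in percent, by 5FU cycles. All 4 groups peak at 40 to 60%, where 2x averages 33.5 and 10x averages 21.6.

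By genomic class, promoters had the smallest SD before the level was taken into account. The mean SD of promoter bins (within 1 kb of a transcription start site; 31529 bins, mean methylation 12.8%) was 5.90, 8.38, 5.13 and 4.85 points at 0x, 2x, 4x and 10x. For introns (20844 bins, 72.6% methylated) it was 12.4, 16.4, 10.5 and 9.18 points at 0x, 2x, 4x and 10x, and for intergenic bins (20669 bins, 75.9% methylated) 12.1, 15.8, 10.2 and 8.99 at 0x, 2x, 4x and 10x. When each class was given the same mixture of levels, most of this gap closed. The level-standardised mean SD in 0x was 9.42 points for promoters, 10.2 for introns and 9.97 for intergenic bins, and in 10x it was 7.29, 7.68 and 7.61 for the same classes. Exons lay below promoters on this scale in every group, with 9.29, 12.2, 7.75 and 7.12 points at 0x, 2x, 4x and 10x, against 9.42, 12.8, 8.06 and 7.29 for promoters. The score of 10x averaged below that of 0x and that of 2x above it in all 8 classes, and each passed the test in 7, the exception in both being the 286 bins of 5′ UTRs, with an adjusted p of 0.05 in each case (exact permutation tests over 24 comparisons). In introns 10x averaged 12.3 ± 0.952 points and 0x 16.3 ± 1.58 (SD, n = 6 and 4), a difference of -3.97 without overlap (exact permutation test, adjusted p = 0.0127). In promoters 10x averaged 7.74 ± 0.894 and 0x 9.44 ± 1.07 (SD, n = 6 and 4), a difference of -1.70 with overlapping samples (exact permutation test, adjusted p = 0.049). No class passed the test in 4x. The ratio of the mean SD in 10x to that in 0x ran from 0.745 on chromosome 9 to 0.785 on chromosome 14 over the 19 autosomes.

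**Figure D4:**
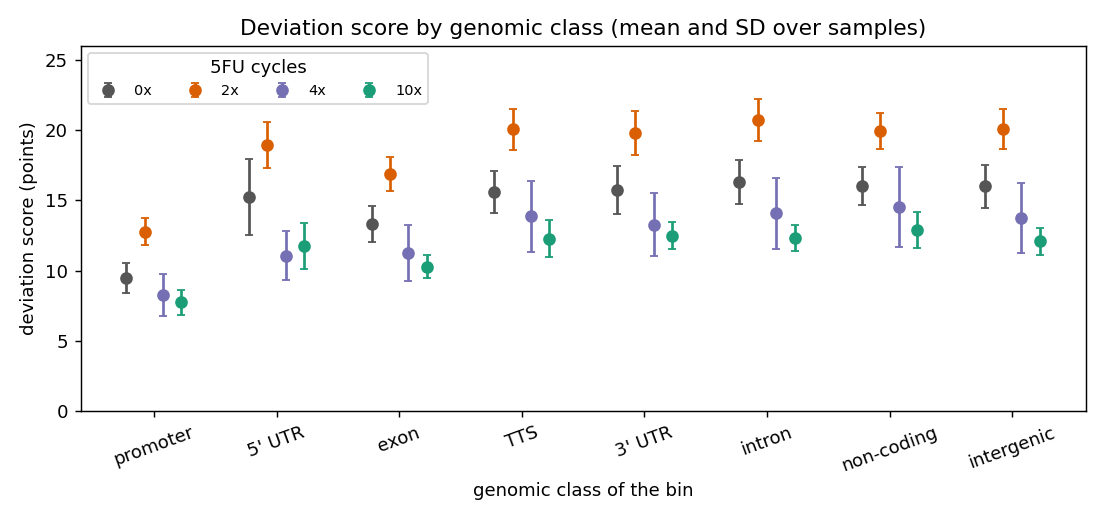
Deviation score in percentage points (mean and SD over the samples of a group) in 8 genomic classes, by 5FU cycles. Promoters are lowest in every group, and within each class 2x is the highest of the 4 groups.

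Sequence content went with the spread. Among bins of 60 to 95% methylation, those with 1 CpG (6605 bins) had a mean SD of 16.4, 21.1, 13.3 and 11.7 points at 0x, 2x, 4x and 10x, whereas those with 8 to 10 CpGs (404 bins) had 10.8, 14.7, 8.72 and 8.04 points in the same groups. A bin with more CpGs averages more calls per molecule, and the part of this in the lower SD was not tested. In the same range of 60 to 95%, 1321 bins were made up wholly of repeat sequence (lower-case letters of the assembly). They averaged 88.5% methylation and had a mean SD of 8.79 points in 10x and 12.2 in 0x. The 13788 bins with no repeat letters averaged 85.1% and had 10.8 points in 10x and 15.1 in 0x. The level thus differed between the 2 kinds of bin, and its part in the SD was not tested. Bins under 0.25 kb from a transcription start site had the smallest mean SD, 3.97 points in 10x and 4.78 in 0x, and those at 5 to 50 kb 8.99 in 10x and 12.2 in 0x.

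The same bins tended to be variable in different groups. Across 81383 bins the SDs of 2 groups had a Spearman rho of 0.58 to 0.62 over the 6 pairs of groups, and 0.23 to 0.26 over the 13070 bins of 20 to 80%. The bins share their mean level and CpG number, so these values describe the bins and were not tested. An SD over 20 points was found in none of the groups in 68.9% of bins and in all 4 groups in 1430 bins (1.76%). Of the 13070 bins of 20 to 80%, 1414 had an SD over 20 points in all 4 groups and 81 an SD under 10 points in all 4. The 1414 wide bins held 2.38 CpGs on average, the 81 tight bins 4.99, and all 13070 bins 2.998. Repeat sequence filled 1.20% of the wide bins and 11.1% of the tight ones, against 1.73% of all. Promoters made up 17.4% of the wide and 11.1% of the tight bins. Of the 81 tight bins, 5 lay nearest to AY036118, more than for any other gene.

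The bins most spread in every group held samples near both ends of the scale. The bin at the promoter of Mad2l2, a subunit of translesion polymerase zeta that also acts in DNA end protection, read 28.6, 96.8, 0 and 74.1% in 0x, then 0, 100, 46.4, 0, 35.3 and 100% in 2x, then 0, 58.6, 100 and 55.8% in 4x, and 100, 0, 74.2, 0, 77.1 and 0% in 10x. Its SD was 43.7, 45.1, 41.1 and 46.7 points at 0x, 2x, 4x and 10x. At the promoter of Gm19668 the samples read 0, 0, 32.4 and 100% in 0x, then 41.5, 0, 100, 100, 75.5 and 100% in 2x, then 100, 79.2, 0 and 0% in 4x, and 100, 0, 0, 42.0, 0 and 100% in 10x. At both bins every group had samples at or near 0 and at or near 100%, with no order by cycle number. The other 6 bins of this kind were near Gm36784, Gm30321, Gm41955, Gm31836, 0610040B10Rik and Anks1b, a postsynaptic scaffold gene, with the lowest SD of the 4 groups between 39.3 and 41.1 points. All 8 held 1 to 3 CpGs, and were chosen for these values.

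The bins tightest in every group, taken from those of 40 to 60% methylation, kept an intermediate level in all 20 samples. The intron bin nearest to 1700113H08Rik read 43.5, 42.3, 43.1 and 44.5% in 0x, then 42.5, 39.6, 58.9, 49.2, 44.6 and 40.7% in 2x, then 45.3, 45.8, 43.0 and 46.7% in 4x, and 43.3, 43.6, 46.5, 41.6, 46.1 and 49.2% in 10x. Its SD was 0.934, 7.22, 1.60 and 2.73 points at 0x, 2x, 4x and 10x. The intergenic bin nearest to Gm33780 had an SD of 5.80, 7.06, 1.16 and 3.64 points at 0x, 2x, 4x and 10x. Whether the reads of this or the other tight bins came from a single locus or from repeated copies was not tested. The intron bin nearest to Igf1r, the receptor of insulin-like growth factor 1, had an SD of 3.18, 7.84, 5.78 and 7.09 points in 0x, 2x, 4x and 10x. At the promoter of Rbmxl2, a germ cell RNA-binding protein, whose bin holds 20 CpGs, the SD was 5.28, 9.17, 8.55 and 7.52 points in the same order. The other 4 lay nearest to Vps26c, a subunit of the retriever sorting complex, Gm36752, LOC115490388 and n-TRacg6, with SDs of at most 8.48 points. In all 8 of these bins the highest SD of the 4 groups was that of 2x.

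**Figure D5:**
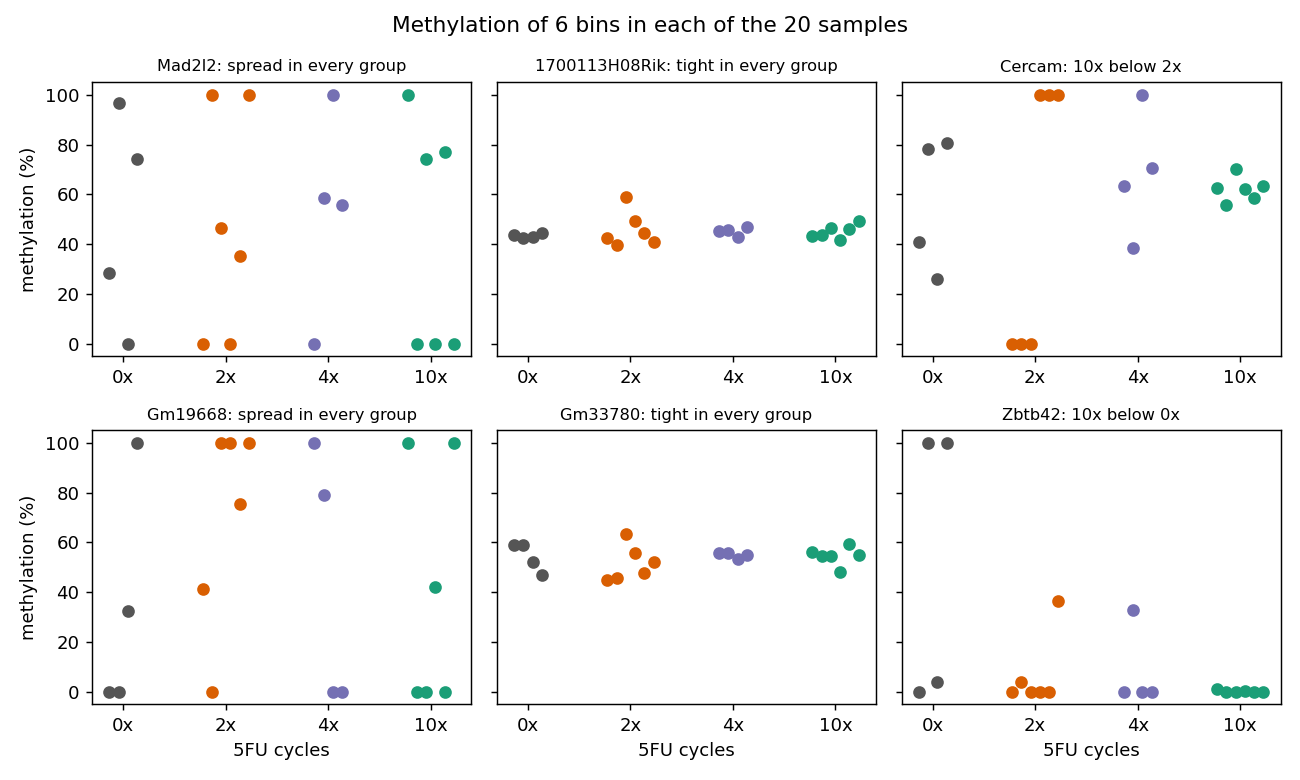
Methylation in percent of 6 bins in each of the 20 samples, by 5FU cycles; each point is 1 sample. Mad2l2 and Gm19668 reach both ends in every group, 1700113H08Rik and Gm33780 stay within 39.6 to 63.3%, the 10x samples of Cercam lie within 55.7 to 70.4%, and those of Zbtb42 within 0 to 1.09%.

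Spread was then tested bin by bin with limma on the absolute deviations from the group mean, with Benjamini-Hochberg adjustment over the 81383 bins. Against 0x, 10x was less spread in 3050 bins (3.75%) and more spread in 94 (0.116%). The 2x group was more spread than 0x in 2368 bins (2.91%) and less spread in 3186 (3.91%). This balance turned on the log2 ratio scale (1471 more and 695 less spread), on average over draws of 4 samples (6345 more and 4912 less) and without the 2x sample 03 (3360 more and 3264 less). The 4x group was more spread than 0x in 439 bins (0.539%) and less spread in 1142 (1.4%). That balance turned when any 1 of the 4x samples was left out, with 1631 more and 1091 less spread without 05, 2173 and 1825 without 06, 794 and 661 without 19, and 904 and 672 without 20. The 10x group was less spread than 2x in 5088 bins (6.25%) and more spread in 399 (0.49%). Over all autosomal bins that vary, 115866 bins were called more and 41365 less spread in 10x than in 2x. In the same bins, 20455 were called more and 109071 less spread in 2x than in 0x. This test was too liberal on simulated data of equal spread with normal noise. Unlike such data, 31.8% (10x) to 56.4% (2x) of the values used were at 0 or 100%. How either centre keeps its level on such values was not tested. With deviations taken from the group median, which kept its level in the simulation, limma called 121 bins less and 1 more spread in 10x than in 0x, 78 more and 216 less in 2x than in 0x, 25 more and 67 less in 4x than in 0x, and 116 less and 5 more in 10x than in 2x. In the bins used here, narrower bins in 10x outnumbered wider ones with both, while the number of bins differed widely between them. Without sample 32, 1453 bins were called between 10x and 0x and 3284 between 10x and 2x. Of the 3050 bins less spread in 10x than in 0x, 930 (30.5%) held a single 0x sample more than 40 points from the 0x median, as did 768 (24.1%) of the 3186 bins less spread in 2x than in 0x.

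Among the named bins narrower in 10x than in 0x, those of Zbtb42 and Nrg1 passed with either centre. At the promoter of Zbtb42, a zinc finger gene, the 10x samples read 1.09, 0, 0, 0.289, 0 and 0% and the 0x samples 0, 100, 4.10 and 100%. The SD was 0.436 points in 10x and 56.6 in 0x (limma, adjusted p = 3.93e-06, and 0.00301 with the median). In the intron bin nearest to Nrg1, which encodes the ErbB receptor ligand neuregulin, the 10x samples read 91.2, 100, 100, 100, 100 and 100% and the 0x samples 0, 100, 100 and 0%, with SDs of 3.61 points in 10x and 57.7 in 0x (limma, adjusted p = 4.1e-07, and 0.00174 with the median). In both bins 2 of 4 untreated samples stood at the opposite end. The other 3, at Gpr83, Ppargc1b and Gm23450, had 1 of 4 untreated samples at the opposite end, and did not pass with the median (limma, adjusted p = 1 for each, rounded). The bins most widened in 10x over 0x lay at Gm32409, Dmrtb1, Foxf1, Nfyb and Plekha7. At the promoter of Dmrtb1, a transcription factor of spermatogenesis, the 10x samples read 67.7, 8.42, 86.9, 0, 71 and 12.5% and the 0x samples 36.7, 50, 49.2 and 50.6%, with SDs of 38.1 points in 10x and 6.63 in 0x (limma, adjusted p = 0.0333, and 0.331 with the median).

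Between 10x and 2x, the promoter bin of Cercam, an endothelial cell adhesion gene, was the one of the 5 named narrower bins that passed with either centre. Its 10x samples read 62.5, 55.7, 70.4, 62.0, 58.7 and 63.3% and its 2x samples 0, 0, 0, 100, 100 and 100%. The group mean was 62.1% in 10x and 50% in 2x, and the SD was 4.94 points in 10x and 54.8 in 2x (limma, adjusted p = 5.13e-05, and 0.000348 with the median). In 0x this bin read 41.0, 78.1, 25.9 and 80.5%. In the intron bin nearest to Tmod1, which caps actin filaments, the 10x samples read 98.8 to 100%, whereas the 2x samples read 100, 0, 52.9, 100, 100 and 0% (limma, adjusted p = 0.00454, and 0.15 with the median). The bin at Gm38747 went the other way, with 100, 100, 0, 0, 0 and 100% in 10x and 93.8 to 100% in 2x (limma, adjusted p = 0.00134, and 0.0232 with the median).

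Between 2x and 0x, the bin most widened was an intron bin 95467 bp from the nearest transcription start site, that of Engase, a cytosolic glycosidase. This bin read 100, 0, 100, 100, 0 and 0% in 2x and 83.0, 77.8, 81.6 and 80% in 0x. Its SD was 54.8 points in 2x and 2.24 in 0x (limma, adjusted p = 0.00202, and 0.00871 with the median). At the CpG-dense promoters of Zfp318, a splicing-associated zinc finger gene of B cells, and Prkar1b, a regulatory subunit of protein kinase A, the same 2x samples, 16 and 18, read 100% and all other samples read under 5%. These 2 bins had SDs of 51.4 and 51.5 points in 2x, against 0.0916 and 2.43 in 0x, and did not pass with the median (limma, adjusted p = 0.66 and 0.679). The bins most narrowed in 2x were near Cfap46, D130043K22Rik, Sp9, Gm23450 and Gm34481, each with 1 of 4 samples of 0x at the opposite end. The same held for the bins with the largest differences between 4x and 0x. At the promoter of Dusp5, a phosphatase of ERK, 1 of 4 samples of 4x read 100% and the 0x samples 0 to 0.717%, and at the promoter of B4galt4 1 of 4 samples of 0x read 100% and the 4x samples 0 to 1.52%. The exception was the bin at Satb1, a chromatin organiser of lymphoid cells, with 83.3 to 100% in 4x and 100, 0, 0 and 100% in 0x (limma, adjusted p = 0.0401, and 0.392 with the median).

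Promoter bins of 16 gene lists were described beside all promoter bins, which had a median SD of 3.29, 4.75, 2.76 and 2.62 points at 0x, 2x, 4x and 10x. Promoters of HSC transcription factor genes had low methylation and a small SD, as did other lists of low methylation, such as PRC2 subunit genes (mean methylation 4.03%). For 16 of 20 HSC transcription factor genes with bins (53 bins, mean methylation 3.12%) the median SD was 2.34, 3.62, 2.47 and 2.33 points at 0x, 2x, 4x and 10x. Cbfa2t3, a corepressor partner of Tal1 and the most variable of those with 3 or more bins, had a mean SD of 7.86, 10.3, 2.61 and 3.46 points at 0x, 2x, 4x and 10x, and Etv6, needed for HSC maintenance in the marrow, had 3.25, 2.45, 2.49 and 1.74. The 14 autosomal genes of clonal hematopoiesis (41 bins, mean methylation 2.58%) had medians of 2.07, 3.43, 1.89 and 1.99 points in 0x, 2x, 4x and 10x. Their mean SDs were 2.60, 5.59, 2.57 and 3.22 points, so by the mean 10x lay above 0x. Within this list Srsf2, a splicing factor, was the tightest and Gnb1, a G protein subunit, the most variable, with a mean SD of 4.82, 19.3, 4.02 and 2.30 points at 0x, 2x, 4x and 10x. In the 2x sample 18 the 3 bins of Gnb1 averaged 33.3%, against 0 to 9.55% in the other 2x samples. In the enzymes that write and erase methylation (41 bins), Dnmt3a, a de novo methyltransferase, had a mean SD of 1.44, 5.97, 2.86 and 3.53 points at 0x, 2x, 4x and 10x over 11 bins, and Uhrf2, a reader related to the maintenance factor Uhrf1, had 11.1, 9.88, 5.77 and 3.64 over 5 bins. Housekeeping promoters (41 bins) had medians of 3.27, 4.27, 2.06 and 2.35 points. HSC surface marker genes (14 bins) had medians of 3.05, 5.87, 3.46 and 2.24 points. Their mean SDs were 7.55, 8.98, 5.27 and 8.03 points, so 10x was not below 0x by the mean. Lineage marker genes, with 6 bins in 4 of 19 genes, were too few to describe.

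Imprinted genes and the protocadherin clusters, which include many bins of intermediate methylation, had the widest promoter bins of the lists with more than 6 bins. The median SD over 94 bins of 32 imprinted genes (mean methylation 34.6%) was 12.6, 19.9, 10.4 and 10.1 points at 0x, 2x, 4x and 10x. In their 52 bins of 20 to 80% it was 23.4, 34.2, 23.3 and 18.6 points, against 18.4, 27.6, 17.2 and 16.1 for all promoter bins at this level. Snrpn, the imprinted gene of the Prader-Willi region whose bins are shared with Snurf, averaged 69.9, 37.4, 43.1 and 37.4% over 5 bins in 0x, then 46.4, 86.8, 58.3, 87.8, 38.7 and 24.1% in 2x, then 43.2, 65.6, 26.2 and 77.6% in 4x, and 54.7, 86.8, 71.8, 79.3, 47.6 and 51.9% in 10x. The groups overlapped throughout, and the mean SD of its bins was 27.8, 41.1, 29.4 and 24.9 points at 0x, 2x, 4x and 10x. Blcap was the tightest imprinted gene, at 2.49% methylation, with 3.17, 6.53, 1.66 and 2.69 points. The protocadherin clusters (36 bins in 19 of 58 genes) had medians of 14.7, 21.6, 15.7 and 14.3 points, from Pcdhga11 with 10.4 in 10x and 9.30 in 0x to Pcdhga8 with 13.8 in 10x and 24.9 in 0x. Genes of one protocadherin cluster resemble each other in sequence, and reads could be split between them.

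Polycomb-type developmental promoters were intermediate. The 128 bins of 33 Hox genes had medians of 5.43, 7.11, 5.07 and 4.52 points at 0x, 2x, 4x and 10x. In their 19 bins of 20 to 80% the medians were 15.6, 19.02, 17.5 and 18.4 points, so there 10x was not below 0x. The SD was lower in 10x than in 0x in 26.3% of these 19 bins, against 58.9% of all promoter bins at this level. This difference was not tested. Hoxa5 was the most variable, with an average of 21.8, 58.9, 35.6 and 57.8% over 4 bins in 0x, then 33.2, 0, 21.8, 8.59, 16.8 and 16.6% in 2x, then 28.6, 57.3, 34.4 and 11% in 4x, and 16.4, 27.7, 25.5, 57.4, 24.8 and 32.3% in 10x. Hoxb7 was the tightest, with mean SDs of 2.11 to 5.84 points over the 4 groups. Other developmental regulators (301 bins of 60 genes) had medians of 4.41, 7.07, 3.89 and 3.90 points. Of these, Hand1, a heart and trophoblast factor at 40.9% methylation, had a mean SD of 17.2, 24.8, 11.8 and 14.5 points at 0x, 2x, 4x and 10x, and Tbx3 had 2.98 to 4.64. PRC2 subunits (36 bins) had medians of 2.13, 4.42, 1.66 and 2.27 points, from Rbbp4 to Jarid2. Germline genes (29 bins, 77.5% methylated) had medians of 5.26, 9.71, 4.70 and 3.54, and Dazl, methylated in somatic cells, stayed between 53 and 67.9% in all 20 samples, with mean SDs of 3.79 to 9.61 points.

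Genes that respond to DNA damage and to 5FU were also described. Cell cycle inhibitors and p53 targets (46 bins in 18 of 19 genes) had medians of 3.18, 3.95, 1.72 and 2.09 points at 0x, 2x, 4x and 10x. Bbc3, which encodes the p53-induced cell death protein Puma, was the most variable, with an average of 1.01, 35.5, 2.31 and 37.1% over 3 bins in 0x. In 2x its average was 33.3% in sample 16 and 0 to 4.84% in the others, while in 4x it was 1.10 to 5.31% and in 10x 2.62 to 7.28%. Sesn2, a stress-induced regulator of mTORC1, was the tightest, with mean SDs of 1.23 to 3.12 points. Fluorouracil metabolism and uracil repair genes (14 bins in 9 of 18) had medians of 2.72, 4.31, 1.84 and 1.56 points. Their mean SDs were 3.49, 8.92, 2.88 and 3.62 points, so 10x was not below 0x by the mean. The genes named by the study (48 bins in 14 of 20), which were chosen on these samples, had medians of 3.64, 4.59, 2.70 and 2.82 points, with Wnt5a the most variable at 9.60, 11.6, 5.36 and 10.0 and Eif4ebp1 the least. The 2 metastable epiallele genes with bins had 1 bin each. Over the 5978 genes with 3 or more promoter bins, the mean SD was lower in 10x than in 0x in 65.3% and higher in 2x than in 0x in 75.7%. The same counts were 13 and 12 of 16 imprinted genes, 17 and 15 of 24 Hox genes, 29 and 39 of 46 developmental regulators, 8 and 6 of 11 HSC transcription factors, and 3 and 4 of 7 housekeeping genes.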

How the data were processed

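RRBS libraries of sorted mouse HSCs were grouped by the number of 5FU cycles in their labels. Trim Galore 0.4.3, Bismark 0.23.1 and methylKit 1.22.0 are named in the submitters' processing notes, with build mm10. The deposited percent methylation values per 100 bp bin were made by the authors, who also put a group average where a sample lacked a bin. These filled values are not marked, and they were not a plain mean of the other samples, so those in single samples could not be removed. Only bins in which every group varied and no value other than 0 or 100 recurred in a group were kept, on autosomes. Read depth was not in the files used here, so precision rests on the spread between samples, and no counting interval is given. Columns of other samples were not present.

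Deviation scores were compared by two-sided exact permutation tests over samples with Benjamini-Hochberg adjustment (scipy 1.17.1, numpy 2.4.6, pandas 2.3.3, Python 3.11.15, matplotlib 3.10.9). The scores were not recomputed for each exchange of samples. Bins were tested with limma 3.58.1 (R 4.3.3) on absolute deviations from the group mean, all groups in one fit, and with deviations from the group median as an alternative. The scripts were tested on simulated data. Named bins are the 5 with the largest SD difference per direction and comparison among those called, and the 8 most and least spread in every group, at least 1 kb apart; named list genes are the most and least spread with 3 or more promoter bins. Alternatives changed the bin set, centre, scale, samples and label runs. The members and lists were chosen with earlier results of these data known. Classes, CpG numbers and repeats came from the RefSeq annotation and sequence of GRCm38.p6.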

Additional observations from a re-analysis of the deposited data

Results flagged for a closer look

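The 10x sample 32 stood apart from the other 5 samples of its group in 3 measures, each by the gap between it and its nearest neighbour relative to the range of the group. Of its values, 8.19% lay within 0.1 points of the mean of the others, against 1.07 to 1.67% in the other 10x samples. It was the sample farthest from the group mean in 8.04% of bins, against 17.2 to 19.3% in the others. Values recurring in its group made up 15.8%, against 7.85 to 10.4% in the others. Chance flags about 1 in 20 groups, and 24 group measures were looked at.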

How the results depend on the processing

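Read depth, which sets how finely a bin can vary, was not in the files used here, so the part of sampling in the spread was not tested. With bins in which at least 1 group varied and nothing recurred, the score difference was -2.43 for 2x minus 0x, -1.10 for 10x minus 2x (no longer past the test), 1.29 for 4x minus 2x and -2.39 for 10x minus 4x. With all bins that vary, where filled values enter, it was -1.75 for 2x minus 0x, -1.53 for 10x minus 0x, 0.216 for 10x minus 2x and 1.47 for 4x minus 2x, none of them past the test. With bins chosen by the groups not compared it was 0.203 for 2x minus 0x and -2.09 for 4x minus 2x, and without any value at 0 or 100% it was -1.35 for 10x minus 0x, with 3 of 12 class comparisons and 5 of 15 level comparisons passing, all of them higher than 0x. The cause was not tested. The bins chosen by the groups not compared, the separate label runs and the joint omission of 2 samples were added after seeing the data.

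Within label numbers 01 to 12 the differences were 4.73 for 2x minus 0x, -4.08 for 10x minus 0x, -8.81 for 10x minus 2x, -9.50 for 4x minus 2x and 0.693 for 10x minus 4x. Within 13 to 34 they were 3.33, -2.75, -6.07 and -2.91 for the first 4 of these pairs. For 4x minus 0x the difference was -4.77 within 01 to 12 and 0.421 within 13 to 34. These subsets hold fewer samples. Leaving out 1 sample gave -2.54 to -0.238 for 10x minus 4x, which passed without the 4x sample 06, and it was -2.83 without that sample and the 10x sample 32. The other score differences kept their side of the threshold with any 1 sample left out, with 3.22 to 4.45 for 2x minus 0x, -3.78 to -2.56 for 10x minus 0x and -7.52 to -6.63 for 10x minus 2x.

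The number of bins called by limma moved most. Squared deviations gave 501 bins for 2x, 336 for 4x and 386 for 10x against 0x, and 175 for 10x against 2x. In the same order, deviations from the median gave 294, 92, 122 and 121, a variance trend 9087, 3905, 4919 and 12820, a fit of only the groups compared 530, 1013, 1791 and 1552, bins with no value at 0 or 100% 4, 4, 7 and 6, draws of 4 samples on average 11257, 976, 1091 and 10124, and all bins that vary 129526, 195152, 137277 and 157231, of which 112656 were more and 82496 less spread in 4x than in 0x. The log2 ratio scale gave 2166, 134 and 431 against 0x. Deviations taken from the mean of the group within each label run gave 3582 for 4x against 0x. Leaving out 1 sample gave 5550 to 9411 for 2x against 0x (8480 without the 2x sample 15 and 9411 without 17), 1455 to 5253 for 4x against 0x, 1453 to 6381 for 10x against 0x (6361 and 6381 without the 0x samples 01 and 13) and 3284 to 11678 for 10x against 2x, where leaving out any 2x sample raised it. No paired analysis was possible because the groups share no label number.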
